A study of Mus musculus with 300 samples.

Results

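Phase II conjugation enzymes were taken as all genes whose symbol begins with Gst and a class letter (a, m, p, t, z, k or o) and a number, or with Mgst, Ugt1 to Ugt3 or Sult and a number. By this rule 46 of the 18193 measured genes were members: 20 soluble glutathione S-transferases (Gst), 3 microsomal glutathione S-transferases (Mgst), 10 UDP-glucuronosyltransferases (Ugt) and 13 sulfotransferases (Sult). Where a gene had several probe sets, the brightest one on average stood for it. The rule also fits 21 further RefSeq genes that are not analysed here, 11 of them on probe sets that name several genes, among them most Ugt1a genes, Gsta1 and the pair Ugt2a1 and Ugt2a2.

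Phase II enzymes join a polar group to drugs, steroids, bile acids and reactive metabolites, which are then carried out of the cell. Glutathione S-transferases attach glutathione to electrophiles such as epoxides and unsaturated aldehydes, UDP-glucuronosyltransferases transfer glucuronic acid from UDP-glucuronate, and sulfotransferases transfer sulfate from its activated donor PAPS. Liver is the main site of all 3 reactions, and peroxisome proliferator-activated receptors (PPARs) are lipid-sensing nuclear receptors whose agonists change many liver genes of fat oxidation and detoxification.

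Mice were dosed by mouth at 10 mg/kg with WY14643, an agonist of PPARα, with GW501516, an agonist of PPARδ, or with rosiglitazone, an agonist of PPARγ, and controls received vehicle. The PPARα agonist is named WY14643 here as in the sample labels, while the series' design text writes WY16453. Liver, heart, kidney and skeletal muscle were taken after 4, 8 and 15 days, with 5 treated and 10 vehicle animals on each day, so each tissue had 15 arrays per compound and 30 vehicle arrays. The same 75 animals gave all 4 tissues, which made 300 arrays of an Affymetrix whole-genome mouse type. Strain, sex and age are not given in the labels used here, and the Y-linked gene Eif2s3y was at or above 9.41 on every array. All levels below are log2 intensities, and all changes are log2 differences from vehicle of the same day averaged over the 3 days, with their standard error (SE). A call is a limma p under 0.05 after Benjamini-Hochberg adjustment over the 18193 genes, and the 3 compounds share the same vehicle arrays.

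Markers of each tissue were bright in it: the mean of 10 hepatocyte markers was 14.22 ± 0.03 in vehicle liver, and the mean of 6 cardiomyocyte markers was 14.36 ± 0.18 in vehicle heart (SD, n = 30 each). Hepatocyte markers were also bright on many heart arrays, where their mean ran from 5.74 to 12.04, and on some muscle arrays, where it reached 11.39. Median intensity per array was 6.12 to 6.26 in liver, 7.27 to 7.44 in heart, 5.05 to 5.38 in kidney and 4.98 to 5.13 in skeletal muscle, so tissues were tested apart. In tissue samples fewer cells of a type and less RNA per cell cannot be told apart.

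One animal stood apart, WY14643 day 4 replicate 2. On its liver array 23 of the 46 members had their lowest value of all 75 liver arrays, and the mean of 5 neutrophil markers was 8.03, against a highest value of 7.52 and a median of 5.96 on the other liver arrays. Its neutrophil marker mean was also the highest in heart (10.09), kidney (6.34) and skeletal muscle (6.99). On its kidney array the mean of 3 pancreas markers was 11.97, against a median of 5.37 on the other kidney arrays. The highest GW501516 kidney array was at 9.13, so pancreas signal in kidney was not limited to this animal. The calls of WY14643 against vehicle that ended without this animal, and the called changes that moved by more than 1.5 times, are given with and without it. Over all animals the neutrophil marker mean in liver was 6.51 ± 0.76 with WY14643, 6.20 ± 0.48 with GW501516, 5.64 ± 0.30 with rosiglitazone and 6.04 ± 0.35 with vehicle, and in heart 8.06 ± 0.89, 7.56 ± 0.52, 6.95 ± 0.31 and 7.38 ± 0.37 in the same order (SD, n = 15 for each compound and 30 for vehicle). The part of these markers in the results was not tested.

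Across the 12 comparisons of a tissue and a compound with vehicle, 30 members were called at least once, with 30 calls higher and 23 lower, and 16 members were called in none. Of all genes 37.6% were called at least once, with 5812 calls higher and 6402 lower, against 65.2% of the members. Those 16 were Gsta2, Gsto2, Gstp3, Gstt4, Gstz1, Mgst1, Mgst2, Sult1c1, Sult1e1, Sult2b1, Sult3a1, Sult4a1, Sult5a1, Sult6b1, Ugt2b34 and Ugt2b37. Gstm7 and Ugt2b35 were called in both directions in different tissues. Members above the 40th percentile of mean intensity numbered 36 in liver, 18 in heart, 28 in kidney and 19 in skeletal muscle, and no filter on dim genes was applied to the counts.

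**Figure D1:**
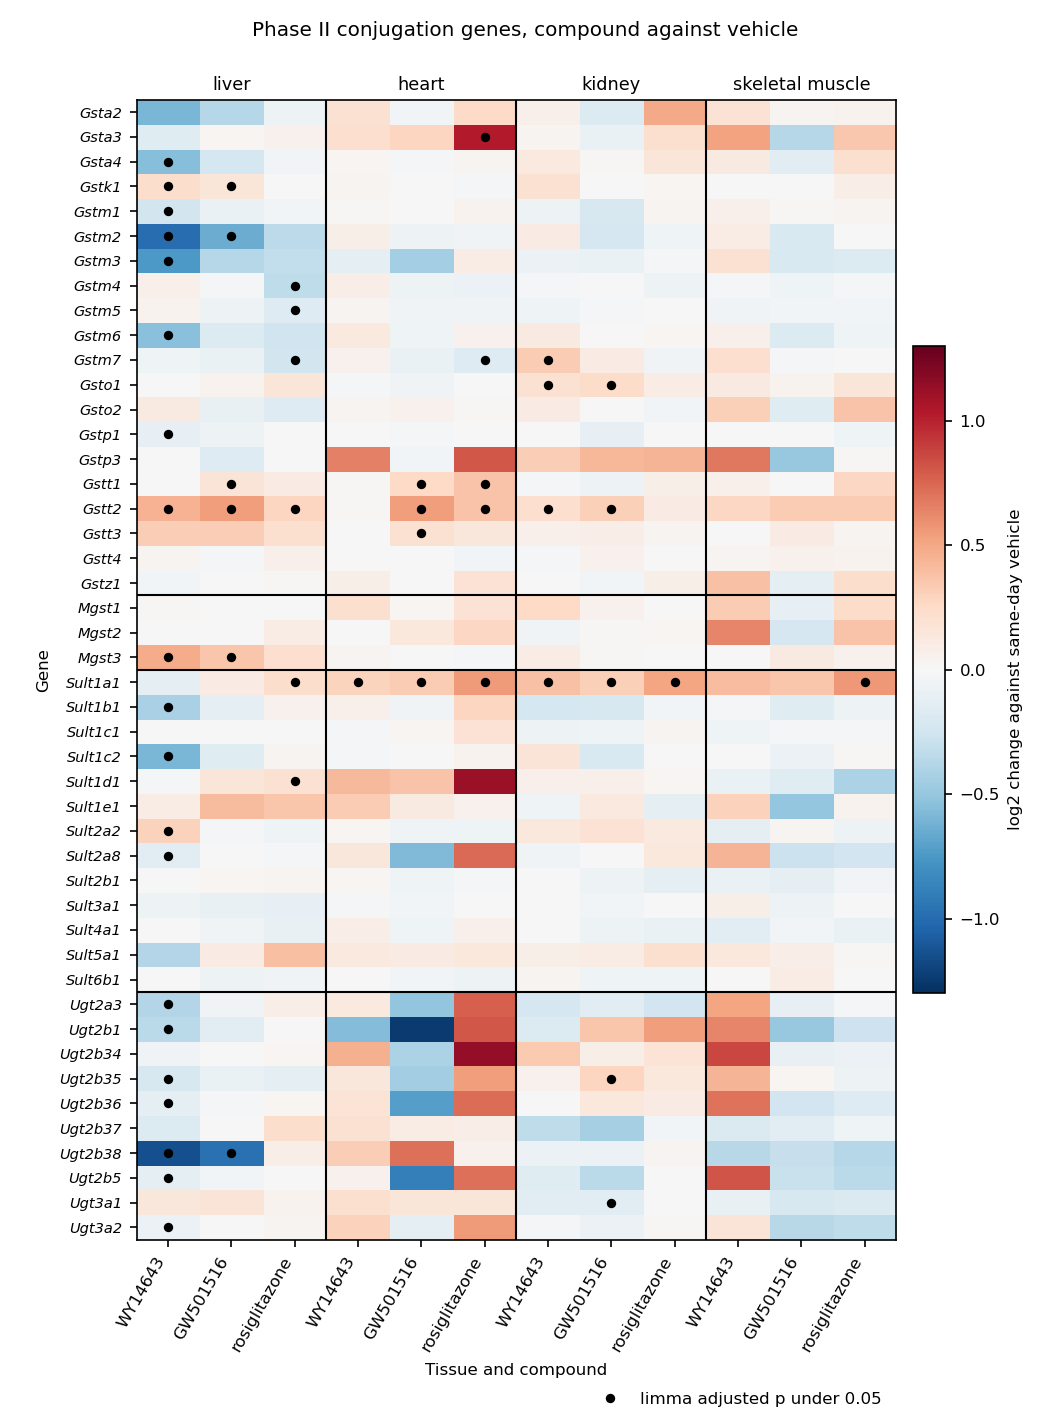
Log2 change of the 46 genes (rows, by family) against same-day vehicle in each tissue and compound (columns), from -1.24 to 1.14, with a dot where the limma adjusted p was under 0.05. The liver column of WY14643 holds 20 dots, 16 of them on falls, while the row of Sult1a1 holds rises in heart and kidney with every compound.

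The promoters of 4 members are shown because the liver and Sult1a1 results below turn on them: Gstm2 and Ugt2b38 fell in liver with both WY14643 and GW501516, Mgst3 rose there with both, and Sult1a1 was called higher in all 4 tissues with rosiglitazone. Each runs from 250 bases before to 50 bases after the start site in RefSeq on GRCm38.p6, 5′ to 3′ on the gene's strand, which is the minus strand for all 4. The windows are chr3:107986371-107986670 for Gstm2, chr5:87424154-87424453 for Ugt2b38, chr1:167393792-167394091 for Mgst3 and chr7:126676369-126676668 for Sult1a1. The Sult1a1 window lies inside the gene's span of 126672865 to 126690443, so its start site is not the one at the gene's outer end. Capitals mark the core of the xenobiotic response element, GCGTG, the only searched motif found in them, which lies at -22 of Mgst3.
Gstm2: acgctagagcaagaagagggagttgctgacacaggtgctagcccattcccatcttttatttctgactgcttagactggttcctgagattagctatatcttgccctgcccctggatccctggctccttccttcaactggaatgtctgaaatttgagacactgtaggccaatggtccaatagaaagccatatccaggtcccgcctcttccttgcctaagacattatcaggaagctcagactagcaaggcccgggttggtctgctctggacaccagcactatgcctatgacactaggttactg
Ugt2b38: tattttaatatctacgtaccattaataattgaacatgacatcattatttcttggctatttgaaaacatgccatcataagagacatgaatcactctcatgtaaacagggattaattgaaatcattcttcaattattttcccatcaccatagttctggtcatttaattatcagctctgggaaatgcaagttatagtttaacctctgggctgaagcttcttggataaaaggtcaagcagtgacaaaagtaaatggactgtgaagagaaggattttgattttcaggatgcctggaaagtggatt
Mgst3: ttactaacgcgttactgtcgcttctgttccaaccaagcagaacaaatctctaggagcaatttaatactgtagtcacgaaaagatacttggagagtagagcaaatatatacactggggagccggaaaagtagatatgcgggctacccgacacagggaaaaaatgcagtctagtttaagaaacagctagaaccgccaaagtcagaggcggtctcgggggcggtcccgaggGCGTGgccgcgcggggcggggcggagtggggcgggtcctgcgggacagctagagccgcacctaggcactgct
Sult1a1: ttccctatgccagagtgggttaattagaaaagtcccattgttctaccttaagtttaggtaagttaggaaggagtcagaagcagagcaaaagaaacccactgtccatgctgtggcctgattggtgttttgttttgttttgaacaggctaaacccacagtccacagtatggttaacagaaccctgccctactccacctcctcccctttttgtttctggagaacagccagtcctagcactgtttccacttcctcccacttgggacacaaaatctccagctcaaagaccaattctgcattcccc

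Promoters were found for 41 of the 46 members, and 6 short motifs were searched on both strands. A relaxed PPAR response element, a direct repeat of AGGNCA spaced by 1 base, was in the promoter of 0 of the 41 members, and in 0.381% of the 32851 promoters of the same length. The antioxidant response element core TGACNNNGC was in 4 members, Gsta3, Gstm5, Gstm7 and Mgst1, and in 12.4% of all promoters. GCGTG was in 9 members and in 32.4% of all promoters, the D-box in its forms TTATGTAA and TTACGTAA was in 1 member (Ugt2b1) and 0 members against 0.938% and 0.119%, and the E-box CACGTG was in 0 members against 7.15%. These matches describe letters in a window and are no evidence of binding.

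In liver WY14643 lowered many more members than it raised: 16 fell and 4 rose of 46, with 11.2% of all genes called, 5.72% of all genes lower and 5.51% higher. The members that fell were 4 of the mu class of glutathione S-transferases, Gsta4 and Gstp1 of the alpha and pi classes, 7 UDP-glucuronosyltransferases and 3 sulfotransferases, and those that rose were Mgst3, Gstt2, Sult2a2 and Gstk1. The median member change was -0.05, against -0.01 over all genes. All 20 called members kept the same sign of change on day 4, day 8 and day 15, whatever its size. With GW501516 5 of 6 called liver members did so, and with rosiglitazone 4 of 6. Calls rest on the average of the same 3 days, which favours a shared sign, so these counts are no separate support. Without the animal described above 19 members were called, 5 higher and 14 lower, of which 18 were among the original 20. The calls of Sult2a8 (adjusted p = 0.117) and Ugt3a2 (0.0891) ended and that of Gstt3 (0.46, adjusted p = 0.0136) was added by limma.

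Among the mu class, which conjugates epoxides and quinones, Gstm2 fell most. Its log2 intensity ran from 9.14 to 11.97 with a median of 10.80 in WY14643 livers, and from 11.06 to 12.73 with a median of 11.76 in vehicle livers. The groups overlapped, with 10 of 15 treated arrays below every vehicle array and 14 of 15 below the same-day vehicle mean. Genes named for the largest rises or falls were required to have at least 14 of 15 arrays on one side of that mean. Such counts are therefore no further support, here or below. The change was -0.99 ± 0.13 (limma adjusted p = 4.39e-08), a fold of 0.50, and it was -0.87 without the animal that stood apart. On single days it was -0.91 ± 0.23 on day 4, -1.07 ± 0.23 on day 8 and -0.99 ± 0.23 on day 15.

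Gstm6 ran from 7.94 to 10.69 with a median of 10.25 in WY14643 livers, and from 10.03 to 11.10 with a median of 10.56 in vehicle livers. The ranges overlapped, and 14 of 15 treated arrays lay below the same-day vehicle mean, as its naming required. The change was -0.54 ± 0.12 (limma adjusted p = 0.000892). It was -0.39 (adjusted p = 0.0034) without the array at 7.94. Gstm3 fell by 0.75 ± 0.18 and Gstm1 by 0.24 ± 0.057 on the log2 scale, and without the same animal the changes were -0.50 (adjusted p = 0.0054) and -0.15 (0.00323), while Gstm4 (0.07), Gstm5 (0.05) and Gstm7 (-0.06) were not called. The transcripts of this class are close in sequence, and the probe sets of Gstm3 and Gstm1 are of the kinds that Affymetrix marks as shared between transcripts (s) or open to cross-hybridisation (x), so how the fall divides among them is uncertain.

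Of the other soluble classes, Gsta4, which conjugates lipid-derived aldehydes such as 4-hydroxynonenal, fell by 0.55 ± 0.14 on the log2 scale. It ran from 8.57 to 12.59 (median 12.23) with WY14643, against 12.06 to 12.99 (median 12.52) with vehicle, and 13 of 15 treated arrays were below the same-day vehicle mean. Leaving out the array at 8.57 changed the value to -0.32 (limma adjusted p = 0.000517), a move of more than 1.5 times. Gsta2 had a change of -0.59 ± 0.27 that was not called (adjusted p = 0.159), and of -0.21 (0.574) without that array's animal. Gstp1, a pi class enzyme bright in this liver (14.30 ± 0.06 in vehicle, SD, n = 30), fell by 0.11 ± 0.028 on the log2 scale.

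Gstt2, a theta class transferase, ran from 11.47 to 12.91 with a median of 12.12 in WY14643 livers, and from 11.01 to 12.26 with a median of 11.80 in vehicle livers. The ranges overlapped, with 6 treated arrays above every vehicle array, and the change was 0.45 ± 0.078 (limma adjusted p = 1.62e-05). It was largest on day 8, at 0.87 ± 0.13, against 0.03 ± 0.13 on day 4 and 0.45 ± 0.13 on day 15, and the call ended without day 8. Gstk1, the kappa class transferase of mitochondria and peroxisomes, rose by 0.23 ± 0.056 (adjusted p = 0.00228), and that call too ended without day 8.

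Mgst3, a membrane-bound transferase with peroxidase activity, was the 1 microsomal member called. It ran from 7.05 to 9.94 with a median of 9.46 in WY14643 livers, and from 8.17 to 9.40 with a median of 8.78 in vehicle livers. Here 8 of 15 treated arrays lay above every vehicle array while 1, from the animal that stood apart, lay below them all. The change was 0.48 ± 0.13 (limma adjusted p = 0.00572), and 0.62 (1.75e-05) without that animal. Mgst1 (0.02 ± 0.022) and Mgst2 (0.00 ± 0.092) were not called.

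Of the 10 UDP-glucuronosyltransferases 7 fell and 0 rose with WY14643, against 5.72% of all genes lower and 5.51% higher, and the median change of the family was -0.15. Ugt2b38 ran from 5.24 to 9.70 with a median of 7.63 in WY14643 livers, and from 7.22 to 9.84 with a median of 8.85 in vehicle livers. The ranges overlapped widely, and 14 of 15 treated arrays were below the same-day vehicle mean. The change was -1.14 ± 0.28 (limma adjusted p = 0.00254). The brighter members Ugt2a3 (-0.38 ± 0.068) and Ugt2b1 (-0.35 ± 0.055) fell less but with smaller errors, with adjusted p values of 2.24e-05 and 1.92e-06 from limma. Ugt2b1 was at 12.28 to 13.56 (median 13.22) with WY14643, against 13.30 to 13.71 (median 13.52) with vehicle, and 10 of 15 treated arrays lay below every vehicle array. Falls of Ugt2b35 (-0.21), Ugt2b36 (-0.13, or -0.08 without the animal described above), Ugt2b5 (-0.12) and Ugt3a2 (-0.08) were small, and Ugt2b34 (-0.05), Ugt2b37 (-0.18) and Ugt3a1 (0.15) were not called.

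Of the 13 sulfotransferases 3 fell and 1 rose with WY14643, against 5.72% of all genes lower and 5.51% higher. Sult1c2 ran from 6.12 to 9.11 (median 8.60) with WY14643, against 8.26 to 9.55 (median 9.0) with vehicle, and changed by -0.59 ± 0.14 (limma adjusted p = 0.00156). Its lowest array was again that of the animal described above, without which the change was -0.42 (adjusted p = 0.00668). Sult1b1, which sulfates thyroid hormones, ran from 9.79 to 10.80 (median 10.49) with WY14643 and from 10.34 to 11.29 (median 10.86) with vehicle. All 15 treated arrays were below the same-day vehicle mean for Sult1b1, whose change was -0.42 ± 0.08 (adjusted p = 7.46e-05). Sult2a8 fell by 0.14 ± 0.045 on the log2 scale, and Sult2a2, a hydroxysteroid sulfotransferase that lies below the 40th percentile of intensity in liver, rose by 0.30 ± 0.085.

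**Figure D2:**
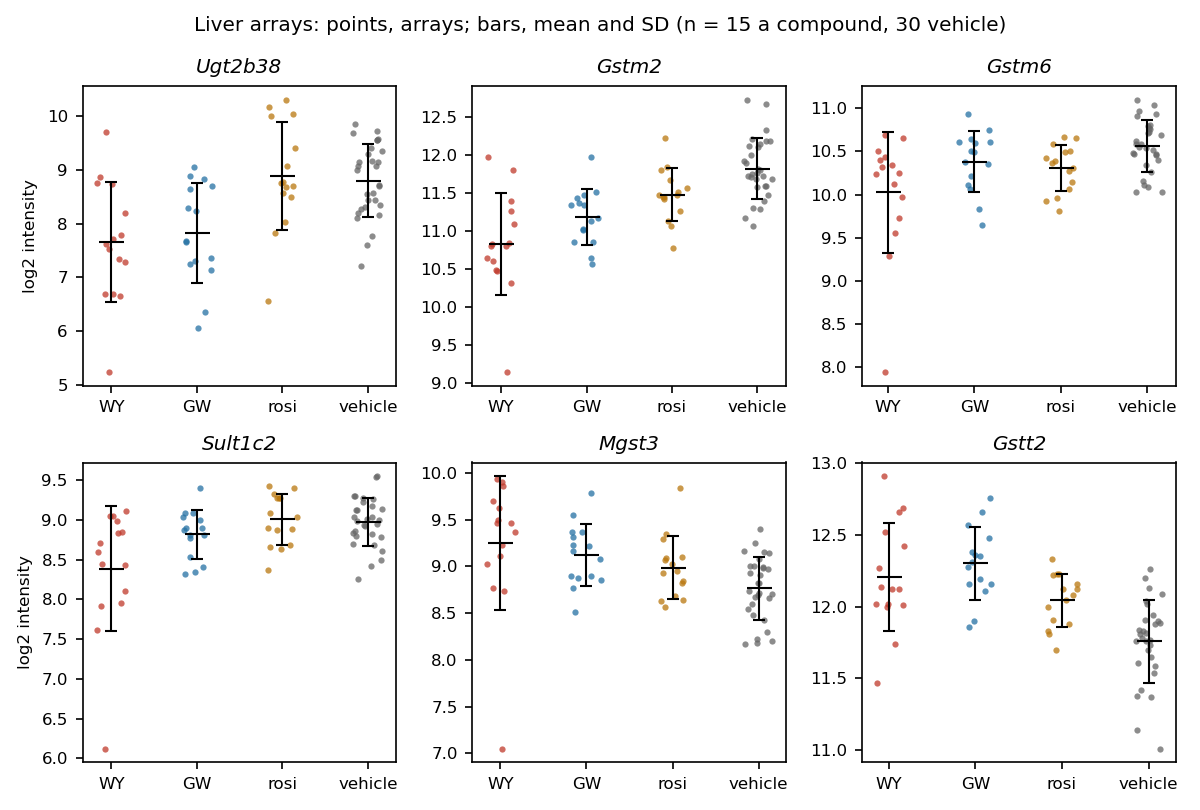
Log2 intensity (y axis) of 6 genes on every liver array for WY14643 (WY), GW501516 (GW), rosiglitazone (rosi) and vehicle, with the mean and SD in black (n = 15 for each compound, n = 30 for vehicle). Ugt2b38, Gstm2, Gstm6 and Sult1c2 sit lower with WY14643 and Mgst3 and Gstt2 higher, with overlap in every panel; the WY14643 arrays at 7.94 for Gstm6, 6.12 for Sult1c2 and 7.05 for Mgst3 are from 1 animal.

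Gene order along the chromosome was set beside these changes. The 7 mu class members lie within 149.3 kb of chromosome 3 (GRCm38.p6, 107895854 to 108045179), in the order Gstm5, Gstm7, Gstm6, Gstm3, Gstm2, Gstm1, Gstm4. WY14643 was called lower for the 4 neighbours in the middle, Gstm6, Gstm3, Gstm2 and Gstm1. Rosiglitazone was called lower for the outer 3, Gstm5 (-0.17 ± 0.051), Gstm7 (-0.24 ± 0.046) and Gstm4 (-0.33 ± 0.089). Its changes in Gstm2 (-0.34 ± 0.13), Gstm3 (-0.32 ± 0.18) and Gstm6 (-0.26 ± 0.12) were of like size, with larger errors and no call. Only Gstm1 (-0.04 ± 0.057) barely moved with rosiglitazone, so its calls do not mark the outer genes as the only ones lower. The difference between the compounds was itself called for 5 of the 7: WY14643 minus rosiglitazone was -0.65 for Gstm2 and -0.20 for Gstm1, and 0.40 for Gstm4, 0.23 for Gstm5 and 0.18 for Gstm7. It was not called for Gstm3 (-0.43, 95% interval -0.84 to -0.01, adjusted p = 0.165 by limma) or Gstm6 (-0.28, adjusted p = 0.176). The 8 Ugt2 members lie within 534.4 kb of chromosome 5 (86889770 to 87424203), where 6 were called lower with WY14643, 1 with GW501516 and 0 with rosiglitazone. Of all genes, 5.72%, 7.06% and 8.71% were called lower in liver with these compounds in that order. The counts of GW501516 and rosiglitazone in these 8 genes are thus close to the background.

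**Figure D3:**
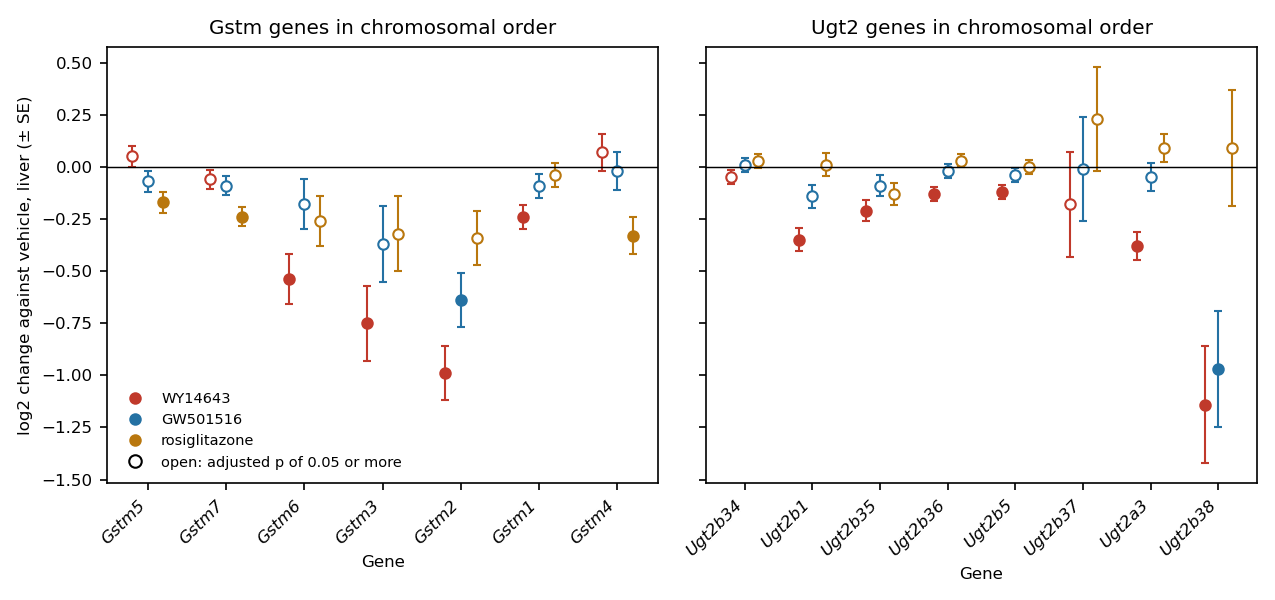
Log2 change against vehicle in liver (y axis, ± SE) of the 7 Gstm genes on chromosome 3 and the 8 Ugt2 genes on chromosome 5 (x axis, in chromosomal order), with filled points for calls. In the Gstm cluster the filled WY14643 points are the middle 4 genes and the filled rosiglitazone points the outer 3. The open rosiglitazone points of Gstm2 (-0.34), Gstm3 (-0.32) and Gstm6 (-0.26) are about as low as the filled ones. In the Ugt2 cluster the largest fall is that of Ugt2b38 at the end.

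GW501516 called 6 members in liver, 4 higher and 2 lower of 46, where 13.9% of all genes were called (6.86% higher, 7.06% lower), so the share of members was close to the background. The 2 that fell were Ugt2b38 and Gstm2. Ugt2b38 ran from 6.06 to 9.05 (median 7.67) with GW501516, against 7.22 to 9.84 (median 8.85) with vehicle, with 13 of 15 arrays below the same-day vehicle mean and a change of -0.97 ± 0.28 (limma adjusted p = 0.0102). Gstm2 ran from 10.56 to 11.98 (median 11.17), against 11.06 to 12.73 (median 11.76), with all 15 below the same-day vehicle mean and a change of -0.64 ± 0.13 (adjusted p = 0.000282).

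Gstt2 rose most with GW501516 in liver. It ran from 11.86 to 12.76 (median 12.31), against 11.01 to 12.26 (median 11.80) with vehicle, so that 9 of 15 treated arrays lay above every vehicle array. The change was 0.54 ± 0.078 (limma adjusted p = 2.05e-07). Mgst3 (0.36 ± 0.13, adjusted p = 0.0451), Gstt1 (0.17 ± 0.053) and Gstk1 (0.16 ± 0.056) also rose, and the Mgst3 call ended in 25 of 45 fits that each left out 1 array. Sult1e1, which sulfates estrogens, had the largest sulfotransferase change with GW501516, 0.41 ± 0.17, and was not called (adjusted p = 0.0952).

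Rosiglitazone called 6 members in liver, 3 higher and 3 lower of 46, against 16.2% of all genes (7.48% higher, 8.71% lower). The 3 that fell were the outer mu class genes named above, and the 3 that rose were Gstt2 (0.28 ± 0.078), Sult1a1 (0.23 ± 0.071) and Sult1d1 (0.20 ± 0.065). Gstt2 ran from 11.70 to 12.33 (median 12.08) with rosiglitazone, against 11.01 to 12.26 (median 11.80) with vehicle, with 14 of 15 arrays above the same-day vehicle mean. Gstm5 ran from 10.30 to 10.86 (median 10.57), against 10.42 to 11.05 (median 10.77), with 14 of 15 below it. Gstm2 (-0.34 ± 0.13, adjusted p = 0.0663), Sult5a1 (0.39 ± 0.23) and Ugt2b37 (0.23 ± 0.25) were not called.

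A score of 16 clock genes differed in mean between the liver groups. It averaged 0.47 ± 1.03 with WY14643, -0.71 ± 0.19 with GW501516, -0.73 ± 0.56 with rosiglitazone and 0.49 ± 0.98 with vehicle (SD, n = 15 for each compound and 30 for vehicle), and every GW501516 liver, from -0.99 to -0.39, lay within the vehicle range of -1.08 to 2.32. With the first 2 components of those genes as covariates, limma called 19 members with WY14643 (4 higher, 15 lower) and 0 with GW501516 or rosiglitazone, and Gstm2 turned to 0.19 with rosiglitazone. Day 8 mattered as well: without it the counts were 15, 2 and 1.

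Side by side at the same dose and days, WY14643 and rosiglitazone differed for 20 of the 46 members in liver, 5 higher and 15 lower with WY14643, where 17.6% of all genes differed (9.44% higher, 8.15% lower). With the clock components as covariates 1 member differed. The largest differences were Ugt2b38 (-1.23 ± 0.32, limma adjusted p = 0.00355), Sult5a1 (-0.77 ± 0.26, 0.0306), Gstm2 (-0.65 ± 0.15, 0.00129) and Sult1c2 (-0.62 ± 0.16, 0.00275). Of these the Sult5a1 call ended in 7 of 30 fits that each left out 1 array. WY14643 and GW501516 differed for 3 members, against 4.55% of all genes (2.27% higher, 2.28% lower): Ugt2a3 (-0.33 ± 0.078) and Ugt2b1 (-0.21 ± 0.063) were lower and Sult2a2 (0.32 ± 0.098) was higher with WY14643. The calls of Ugt2b1 and Sult2a2 ended in 13 and 14 of 30 such fits, and that of Ugt2a3 in 0. Their difference was not called for Gstm2 (-0.35, 95% interval -0.66 to -0.04), Ugt2b38 (-0.17, -0.81 to 0.47) or Gstt2 (-0.09, -0.27 to 0.08), which leaves room for sizeable differences in Ugt2b38. GW501516 and rosiglitazone differed for 1 member, Ugt2b38 (-1.06 ± 0.32, adjusted p = 0.0452), against 3.59% of all genes (2.25% higher, 1.34% lower), and this call ended in 18 of the 30 fits.

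No member's change differed between day 15 and day 4 in liver by limma for any compound, against 0.753%, 0% and 0.132% of all genes for WY14643, GW501516 and rosiglitazone. At an unadjusted p under 0.05 there were 5, 2 and 3.

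In heart Sult1a1 was called higher with all 3 compounds, and the theta class members Gstt2 and Gstt1 with GW501516 and rosiglitazone. GW501516 called 4 members, all higher, against 4.17% of all genes (1.84% higher, 2.33% lower), and rosiglitazone called 5, 4 higher and 1 lower, against 7.51% (2.74% higher, 4.77% lower). WY14643 called 1 member of 46, Sult1a1, against 1.44% (0.605% higher, 0.835% lower). Gstt2 ran from 9.37 to 9.87 (median 9.55) with GW501516, against 8.44 to 9.57 (median 9.02) with vehicle, with 7 of 15 arrays above every vehicle array and a change of 0.54 ± 0.070 (limma adjusted p = 1e-07). With rosiglitazone it ran from 8.83 to 10.09 (median 9.41), with a change of 0.37 ± 0.070. With WY14643 it ran from 8.75 to 9.43 (median 9.06), within the vehicle range, and its change of 0.02 ± 0.070 was not called.

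Gsta3, an alpha class transferase, had the largest called change of any member in heart. It ran from 10.40 to 11.74 (median 10.94) with rosiglitazone and from 9.38 to 10.64 (median 9.88) with vehicle. All 15 rosiglitazone arrays lay above the same-day vehicle mean and 11 above every vehicle array, and the change was 1.03 ± 0.097 (limma adjusted p = 2.76e-12), a fold of 2.04. The mean of 4 adipocyte markers on the same arrays was 7.66 ± 1.48 with rosiglitazone and 7.16 ± 0.77 with vehicle (SD, n = 15 and 30), and its part in the result was not tested. Gstt1 rose with GW501516 (0.26 ± 0.075) and rosiglitazone (0.37 ± 0.075), Gstt3 with GW501516 only (0.20 ± 0.058), Gstt4 was called with none, and Gstm7 fell by 0.17 ± 0.053 on the log2 scale with rosiglitazone. The clock score of these hearts was 0.48 ± 0.79 with WY14643, -0.68 ± 0.22 with GW501516, -0.85 ± 0.45 with rosiglitazone and 0.53 ± 1.05 with vehicle (SD). With the clock components as covariates the heart calls numbered 0, 1 and 0 for the 3 compounds in that order, the 1 being Gstt2 with GW501516.

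In heart 6 of the 10 UDP-glucuronosyltransferases varied with the hepatocyte markers. Across the 75 heart arrays, as deviations from group means, the correlation of the family with the hepatocyte marker mean had a median r of 0.87 and was over 0.8 for those 6, against a median of 0.07 for the 20 soluble glutathione S-transferases. The points share the array, so the values are descriptive. Ugt2b34 changed by 1.14 ± 0.43 with rosiglitazone without a call (limma adjusted p = 0.0979), and Ugt2b1 by -1.24 ± 0.68 with GW501516 and -0.56 ± 0.68 with WY14643, also without a call. With the marker mean as a covariate, Ugt2b1 was at -1.01 ± 0.18 with WY14643 (adjusted p = 0.000668) and Ugt2b34 at 0.71 ± 0.17 with rosiglitazone (adjusted p = 0.00272), both past the threshold. No other change of this family in heart was past it. With GW501516 Ugt2b1 was then at -0.21 ± 0.18 (limma adjusted p = 0.651), and Ugt2b5 went from -0.89 to 0.00 ± 0.14 (adjusted p = 0.999). Sult2a8 (r = 0.97) and Gstm3 (r = 0.73) also tracked the markers. In skeletal muscle the median r of the UDP-glucuronosyltransferases was 0.68, and in kidney 0.11. Some heart arrays were also bright for kidney tubule markers, whose mean over 8 genes ran from 4.86 to 8.47 with WY14643 and from 4.84 to 6.96 with vehicle. Ugt2b38 and Ugt3a2, which were not among the 6, were bright in vehicle kidney (12.60 and 12.93). They reached 9.76 and 11.02 in WY14643 hearts, and the part of the kidney tubule markers was not tested.

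**Figure D4:**
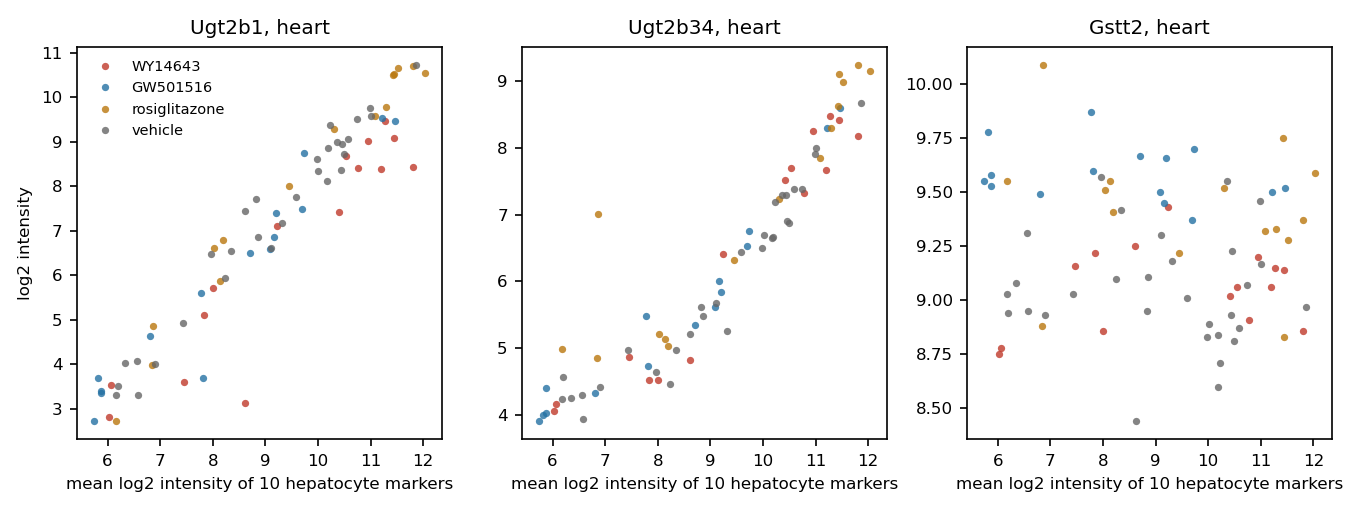
Log2 intensity in heart (y axis) of Ugt2b1, Ugt2b34 and Gstt2 on each of 75 arrays against the mean log2 intensity of 10 hepatocyte markers on that array (x axis), coloured by compound. The Ugt2b1 and Ugt2b34 points climb with the markers from 5.74 to 12.04, and the Gstt2 points do not.

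In kidney 4 members rose and 0 fell with WY14643 (1.74% of all genes called, 0.923% higher and 0.813% lower), 4 rose and 1 fell with GW501516 (6.79%, 3.94% higher and 2.85% lower), and 1 rose with rosiglitazone (1.52%, 0.907% higher and 0.61% lower). Gstt2 ran from 11.00 to 11.55 (median 11.21) with WY14643, from 11.06 to 11.85 (median 11.27) with GW501516 and from 10.63 to 11.38 (median 10.98) with vehicle. All 15 arrays of both compounds were above the same-day vehicle mean, with changes of 0.22 ± 0.041 (limma adjusted p = 0.000215) and 0.31 ± 0.041 (6.01e-08). Gsto1, an omega class enzyme that reduces dehydroascorbate, rose by 0.20 ± 0.056 with WY14643 and 0.24 ± 0.056 with GW501516. Without the animal that stood apart the Gsto1 call of WY14643 ended (0.18, adjusted p = 0.122), which left 3 called members. Gstm7 rose with WY14643 (0.33 ± 0.079), Ugt2b35 rose with GW501516 (0.28 ± 0.090) at a low level (1.71 ± 0.22 in vehicle, SD, n = 30), and Ugt3a1 fell by 0.15 ± 0.040 on the log2 scale with GW501516. Ugt2b35 varied with the hepatocyte markers in kidney (r = 0.58 over 75 arrays, as deviations from group means), whose mean was 5.99 ± 0.75 with GW501516 and 5.82 ± 0.48 with vehicle (SD, n = 15 and 30). With that mean as a covariate its change was 0.23 ± 0.075 (limma adjusted p = 0.0416), and its call ended without day 8, with clock components and with the replicate block. With the clock components as covariates the calls numbered 1, 1 and 0 for the 3 compounds.

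Ugt2b38, the member with the largest fall in liver, was bright and steady in kidney: 12.60 ± 0.10 in vehicle kidney against 8.80 ± 0.68 in vehicle liver (SD, n = 30 each), on arrays whose medians differ between the tissues as given above. It was not called in kidney with any compound. The response itself differed between the tissues. Taken within animals, liver minus kidney, 8 of 46 members had a lower response to WY14643 in liver and 0 a higher one, against 4.69% of all genes (2.69% higher, 2% lower). The largest differences were Gstm2 (-1.10 ± 0.14, limma adjusted p = 7.04e-08), Ugt2b38 (-1.06 ± 0.28), Sult1c2 (-0.75 ± 0.17) and Gsta4 (-0.68 ± 0.17), followed by Gstm3, Gstm6, Sult1a1 and Gstm7. Without the animal that stood apart Gsta4 was at -0.42 (adjusted p = 0.00973), the call of Gstm3 ended (-0.40, adjusted p = 0.156) and that of Mgst3 was added as higher in liver (0.57, adjusted p = 0.000158). The call of Ugt2b38 ended in 1 of 45 fits, that without WY14643 day 8 replicate 1 (-0.87, adjusted p = 0.0559). For GW501516 4 members differed, against 8.18% (3.91% higher, 4.27% lower): Ugt2b38 (-0.89 ± 0.28) and Ugt2b35 (-0.37 ± 0.12) were lower and Ugt3a1 (0.32 ± 0.10) and Gstt1 (0.24 ± 0.066) higher in liver. The calls of Ugt2b38, Ugt2b35 and Ugt3a1 ended in 6, 4 and 4 of 45 fits that each left out 1 array. Ugt2b35 too was dim in vehicle kidney (1.71 ± 0.22, SD, n = 30). For rosiglitazone 0 were called, with 9 at an unadjusted p under 0.05, against 7.22% of all genes called.

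In skeletal muscle 1 member was called. Rosiglitazone raised Sult1a1, a call that ended without day 8, against 1.65% of all genes called (0.627% higher, 1.03% lower), and no member was called with WY14643 or GW501516 (7 and 3 at an unadjusted p under 0.05 in limma), where 0.104% (0.0495% higher, 0.055% lower) and 0.857% (0.456% higher, 0.401% lower) of all genes were. Ugt2b34 (0.87 ± 0.32), Ugt2b5 (0.82 ± 0.38) and Ugt2b36 (0.71 ± 0.34) had the largest changes with WY14643, none called, on arrays whose hepatocyte marker mean was 6.03 ± 2.24 with WY14643 and 4.94 ± 1.59 with vehicle (SD, n = 15 and 30). With that mean as a covariate they were 0.22 ± 0.19, -0.03 ± 0.17 and -0.06 ± 0.16 (limma adjusted p = 0.84, 0.986 and 0.965).

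Sult1a1, the main phenol sulfotransferase, was higher with every compound in heart and kidney. In heart it ran from 11.61 to 13.52 (median 12.17) with WY14643, 12.04 to 12.65 (median 12.25) with GW501516, 12.19 to 12.85 (median 12.52) with rosiglitazone and 11.57 to 12.34 (median 12.01) with vehicle. Rosiglitazone stood out, with 11 of 15 arrays above every vehicle array and a change of 0.55 ± 0.077 (limma adjusted p = 3.18e-07). GW501516 gave 0.33 ± 0.077 and WY14643 0.29 ± 0.077 (adjusted p = 0.0334), and the WY14643 call ended without the animal that stood apart (0.20, adjusted p = 0.119). With the clock components as covariates the heart calls of Sult1a1 ended for all 3 compounds, and without day 8 those of WY14643 and GW501516.

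In kidney Sult1a1 ran from 8.52 to 10.03 (median 8.98) with WY14643, 8.02 to 9.33 (median 8.89) with GW501516, 8.73 to 9.61 (median 9.03) with rosiglitazone and 8.14 to 9.26 (median 8.55) with vehicle. All 15 rosiglitazone arrays lay above the same-day vehicle mean, and the changes were 0.38 ± 0.089 with WY14643, 0.31 ± 0.089 with GW501516 and 0.51 ± 0.089 with rosiglitazone. All 3 kidney calls ended with the clock components and also without day 8. In skeletal muscle they were 0.40 ± 0.11 (adjusted p = 0.156), 0.36 ± 0.11 (0.151) and 0.56 ± 0.11 (0.00175), and 14 of 15 rosiglitazone arrays were above the same-day vehicle mean. In liver, where Sult1a1 was at 12.93 ± 0.22 with vehicle (SD, n = 30), it was called with rosiglitazone (0.23), a call that ended without day 8, with clock components and with the replicate block, and not with GW501516 (0.11) or WY14643 (-0.12). GW501516 minus rosiglitazone was -0.12 in liver (adjusted p = 0.53), and the WY14643 response was lower in liver than in kidney by 0.50 ± 0.11 on the log2 scale (limma adjusted p = 0.00245). The animal that stood apart had the highest Sult1a1 of all 75 arrays in heart (13.52), kidney (10.03) and skeletal muscle (11.33), and the lowest in liver (11.82).

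**Figure D5:**
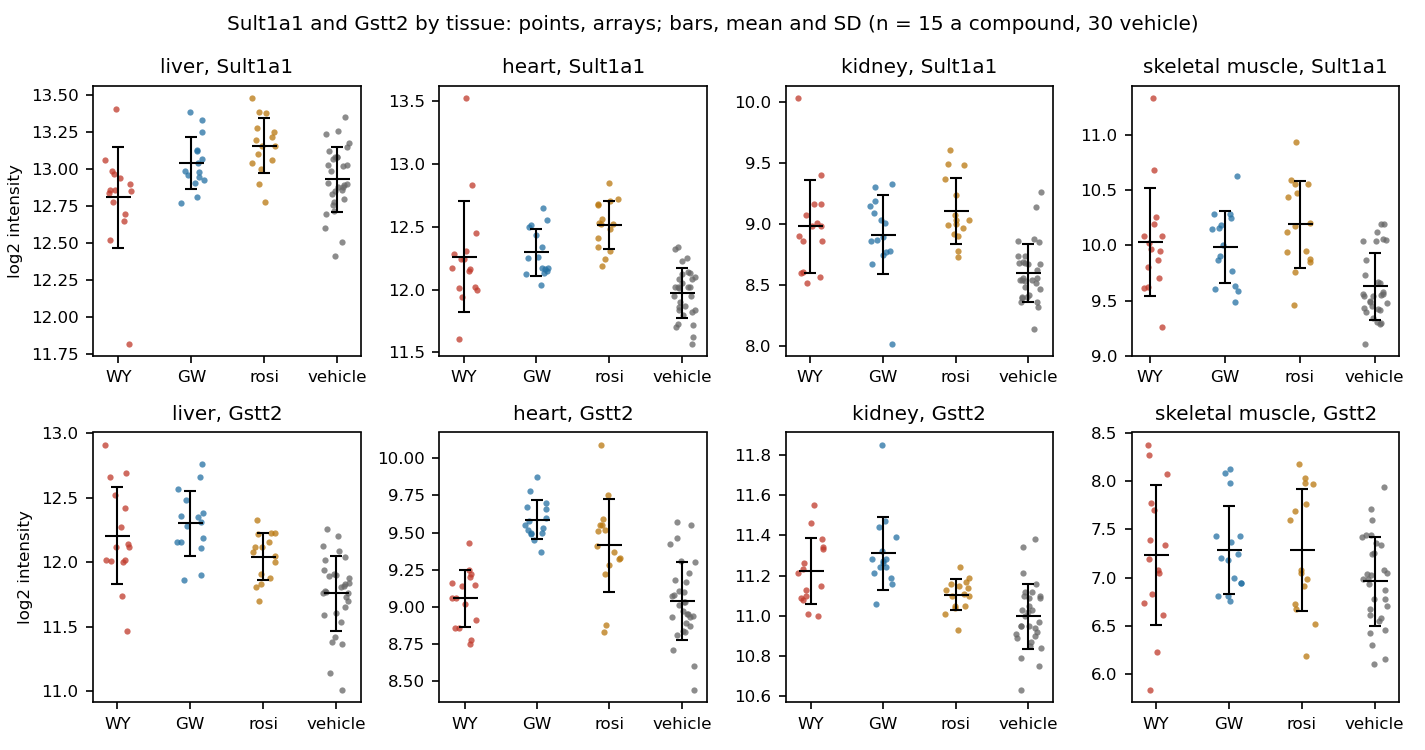
Log2 intensity (y axis, scaled in each panel) of Sult1a1 (top) and Gstt2 (bottom) on every array of the 4 tissues for WY14643 (WY), GW501516 (GW), rosiglitazone (rosi) and vehicle, with the mean and SD in black (n = 15 for each compound, n = 30 for vehicle). Sult1a1 is higher with every compound in heart and kidney, with single WY14643 arrays at 13.52 and 10.03, and Gstt2 is higher with GW501516 in liver, heart and kidney.

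The companion list held 42 measured genes of cofactor supply, other conjugations, conjugate export, other detoxification (with NRF2 targets) and regulation. The regulators include the PPARs and clock factors. In liver 12 (28.6%) were called with WY14643 (6 higher, 6 lower), against 11.2% of all genes (5.51% higher, 5.72% lower). With GW501516 18 (42.9%) were called (13 higher, 5 lower), against 13.9% (6.86% higher, 7.06% lower). Rosiglitazone called 13 (31.0%, 10 higher and 3 lower), against 16.2% (7.48% higher, 8.71% lower). The exporter Abcc3 rose with WY14643 (0.57 ± 0.084) and GW501516 (0.62 ± 0.084), and the arsenic methyltransferase As3mt by 0.54 ± 0.13 and 0.63 ± 0.13. The nuclear receptors Nr1i3 (CAR) and Nr1i2 (PXR), which switch on many conjugation genes, rose with all 3 compounds, Nr1i3 by 0.37 ± 0.077, 0.82 ± 0.077 and 0.66 ± 0.077 with WY14643, GW501516 and rosiglitazone. Among 11 cofactor genes 3 fell and 0 rose with WY14643, among them Ugp2, an enzyme of UDP-glucose synthesis (-0.30 ± 0.058). The clock factor Hlf rose in liver and heart with rosiglitazone (0.57 ± 0.069 and 0.56 ± 0.072) and in heart with GW501516 (0.44 ± 0.072). In kidney Abcc3 rose with WY14643 (0.52 ± 0.10), and in heart Ephx1, the microsomal epoxide hydrolase, rose with GW501516 (0.31 ± 0.047) and rosiglitazone (0.33 ± 0.047).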

How the data were processed

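RNA of 300 tissue samples from 75 mice was hybridised to Affymetrix whole-genome mouse arrays, from 100 ng of RNA per sample per the labels' protocols. The deposited values are log2 intensities that the authors made with RMA and Partek, per the submitters' processing notes, whose versions are not given in the sources used here. Of 45101 probe sets, 34945 name 1 gene, 932 several and 9160 none, and 64 are controls. Genes were named from the platform annotation, and the brightest probe set stood for each of 18193 genes. All 300 columns were used (0 left out), and the number of arrays limits the precision. The labels do not say that samples of a group came from separate cages or days, so p-values measure the spread between these animals.

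From there limma 3.58.1 in R 4.3.3 fitted 12 group means per tissue (63 residual degrees of freedom) with a mean-variance trend, and compound minus same-day vehicle was averaged over the 3 days. Liver minus kidney was fitted on within-animal differences. The fit was tested on simulated data for WY14643, with noise drawn independently for each gene. In liver, over 18193 genes, it recovered 96% of 50 genes changed by a fold of 1.5, and 82% at a fold of 1.25. At these folds it recovered 98% and 84% in heart, and 98% and 76% in kidney. In skeletal muscle the shares were lower, at 90% and 60%. Same replicate numbers did not pair samples: the median correlation of their deviations was -0.001 to 0.063 by tissue, with a lowest value of -0.648 over 90 pairs per tissue, so no block was used.

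The members and all lists (companion genes, markers, clock genes) were chosen with earlier results of these data known. The naming rule took, per comparison, the called members with the 5 largest rises and 5 largest falls shared by at least 14 of 15 arrays against the vehicle mean of their day, the largest change per family, the 4 largest called differences between compounds or tissues, and the 3 largest called companion genes. Other members were named after their values were seen, to account for each family and gene cluster. Alternatives were the mean of all probe sets, leaving out genes below the 40th percentile, quantile normalization, array weights, leaving out day 8, clock components or hepatocyte markers as covariates, a replicate block and leaving out each array. Promoter sequences are from RefSeq on GRCm38.p6.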

Additional observations from a re-analysis of the deposited data

Results flagged for a closer look

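Single arrays far from the others of their group and day were found in 17 of 204 sets, each of 1 gene in 1 group of 5 or 10 arrays (8.33%). The sets came from 17 pairs of a gene and a tissue and use the same arrays repeatedly. The test flags about 1 in 20 independent sets by chance, and these sets are not independent, so the share cannot be read against that. The animal of WY14643 day 4 replicate 2 accounts for 4 of the 17 outliers: its Sult1a1 was 13.52 in heart (others 11.94 to 12.24), 10.03 in kidney (8.61 to 9.01) and 11.33 in skeletal muscle (9.80 to 10.19), and its Gstm6 was 7.94 in liver (9.73 to 10.32). Vehicle day 8 replicate 7 was low in liver for Gstm5 (10.42, others 10.73 to 11.05), Gstt2 (11.01, others 11.65 to 11.94) and Mgst3 (8.17, others 8.66 to 9.17), and in heart for Gstt2 (8.44, others 8.84 to 9.08).

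In liver, Ugt2b38 was 9.70 on WY14643 day 15 replicate 3, against 6.66 to 7.35 on the others, so that 1 animal did not share the fall on that day. Gstm6 was 9.55 on WY14643 day 8 replicate 1 (others 10.25 to 10.51), and Gstt2 was 12.52 on WY14643 day 15 replicate 2 (12.02 to 12.14) and 11.70 on rosiglitazone day 4 replicate 2 (12.12 to 12.23). Gstm2 was 12.23 on rosiglitazone day 8 replicate 3 (11.26 to 11.52) and 12.73 on vehicle day 15 replicate 10 (11.59 to 12.18). In heart, Gsta3 was 10.99 on GW501516 day 15 replicate 2 (10.02 to 10.23), Gstt3 was 7.40 on GW501516 day 4 replicate 1 (7.87 to 8.05), and Gstt1 was 10.64 on vehicle day 15 replicate 8 (9.74 to 10.19).

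The response of 8 members to WY14643 differed between liver and kidney of the same animals by limma's test of the difference: Gstm2 by -1.10, Ugt2b38 by -1.06, Sult1c2 by -0.75, Gsta4 by -0.68, Gstm3 by -0.67, Gstm6 by -0.65, Sult1a1 by -0.50 and Gstm7 by -0.39 (log2, liver minus kidney). For GW501516 the differences were -0.89 for Ugt2b38, -0.37 for Ugt2b35, 0.32 for Ugt3a1 and 0.24 for Gstt1. Of all these genes, Gstm3, Gstm6 and Ugt2b35 were dim in vehicle kidney, as given above.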

How the results depend on the processing

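Of the calls of genes taken by the naming rule, quantile normalization ended none of 42 and leaving out dim genes none of the 41 it could be run on, while clock components ended 26 of 42, leaving out day 8 ended 22 of 42, the replicate block 6 of 34, the mean of all probe sets 3 of 42 and array weights 2 of 42; the cause was not tested. Outside that rule, quantile normalization ended the liver calls of Ugt3a2 with WY14643 and Gstk1 with GW501516. The liver count for WY14643, 20, stayed within 1.5 times under each of these. With clock components the counts of members were 0 in liver for GW501516 and for rosiglitazone, 0, 1 and 0 in heart and 1, 1 and 0 in kidney for WY14643, GW501516 and rosiglitazone, 0 for WY14643 minus GW501516, 1 for WY14643 minus rosiglitazone and 6 for the rosiglitazone response in liver minus kidney. Without day 8 they were 2 and 1 in liver for GW501516 and rosiglitazone, 0, 1 and 3 in heart and 0, 1 and 0 in kidney for the 3 compounds, 0 in skeletal muscle for rosiglitazone, 5, 12 and 0 for WY14643 minus GW501516, WY14643 minus rosiglitazone and GW501516 minus rosiglitazone, and 5 and 1 for liver minus kidney with WY14643 and GW501516. Array weights gave 10 and 12 in liver for GW501516 and rosiglitazone, 1 in skeletal muscle for GW501516, 4 for GW501516 minus rosiglitazone and 3 for the rosiglitazone response in liver minus kidney. Hepatocyte markers as a covariate gave 2 in heart for WY14643 and, for liver minus kidney, where it was chosen after seeing the data, 1 for rosiglitazone, and the mean of all probe sets gave 2 in kidney for rosiglitazone.

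The replicate numbers did not pair the samples; with them as a block the liver counts were 16, 5 and 4 for the 3 compounds, the kidney count for GW501516 was 3 and that for GW501516 minus rosiglitazone was 0. Directions turned for values that were not called: with clock components Gstm2 in liver with rosiglitazone (0.19), and Mgst2 (0.36) and Sult1e1 (0.24) in skeletal muscle with GW501516; with hepatocyte markers Sult2a8 in heart with GW501516 (0.17) and in skeletal muscle with WY14643 (-0.20); and with the block Gstp3 in kidney with GW501516 (-0.04) and Mgst2 in kidney with rosiglitazone (-0.04), which ran from -0.02 to 0.07 as single arrays were left out.

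Leaving out each array in turn gave 18 to 20, 4 to 7 and 5 to 8 members in liver for WY14643, GW501516 and rosiglitazone, 0 to 1, 2 to 4 and 4 to 8 in heart, 3 to 5, 4 to 7 and 1 to 1 in kidney and 0 to 0, 0 to 0 and 1 to 1 in skeletal muscle. It gave 1 to 6 for WY14643 minus GW501516, 18 to 23 for WY14643 minus rosiglitazone, 0 to 2 for GW501516 minus rosiglitazone, 7 to 9, 1 to 5 and 0 to 2 for liver minus kidney, and 0 to 0 for each day comparison. The heart call of WY14643 ended without WY14643 day 4 replicate 2, day 8 replicate 2 or 4, or day 15 replicate 2 or 5, and the heart count of GW501516 was 2 without GW501516 day 4 replicate 2, day 8 replicate 2 or day 15 replicate 1. That of rosiglitazone was 8 without vehicle day 15 replicate 8. For GW501516 liver minus kidney gave 1 without day 15 replicate 2 or 5 and 2 without day 4 replicate 1, and for rosiglitazone 2 without day 15 replicate 1. Counts moved by over 1.5 times without any of 9 arrays for WY14643 minus GW501516 and any of 18 for GW501516 minus rosiglitazone.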
